A study of Mus musculus with 41 samples.

Results

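The conjugation enzymes described here are the glutathione transferases (Gst and the membrane-bound Mgst), the UDP-glucuronosyltransferases (Ugt) and the cytosolic sulfotransferases (Sult), measured as mRNA in mouse lung and liver after inhalation of a coated titanium dioxide nanoparticle (nanoTiO2). Members were chosen by symbol alone: every non-control spot whose gene name starts with Gst and a class letter, Mgst, Ugt or Sult, each followed by a digit. The rule took 47 of 27962 gene names, carried by 65 of 41174 probes and 74 of 43379 spots. They comprise 19 Gst, 3 Mgst, 14 Ugt and 11 Sult genes. The data are 28 mRNA arrays of the 41 arrays of the series: 7 lungs of exposed and 6 of control mice, and 7 livers of exposed and 8 of control mice. All were female C57BL/6BomTac mice that had been time-mated but had not conceived. Exposed mice inhaled UV-titan L181, a rutile TiO2 with a polyalcohol coating and with silicon, aluminium and zirconium, at 40 mg/m3 according to the array labels, by whole-body exposure for 1 h per day on 11 days. Controls inhaled filtered air. Both were killed 5 days after the last exposure. The labels of the mRNA arrays give no age, and those of the miRNA arrays of the same study give 11 to 13 weeks. The methods state that outlying arrays had been removed after clustering, so the arrays at hand are those that were kept.

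Each array carried the RNA of 1 mouse in Cy5 and the same universal mouse reference RNA, a pool of cell lines, in Cy3, with no dye swap. Values are therefore log2 ratios of tissue over reference for a given probe, and the level of one probe cannot be set against that of another. The share of spots with a Cy5 signal well above background was 61.3% to 67.5% per lung array and 55.1% to 70.5% per liver array. Alveolar type 2 cell markers (8 of 8 in each lung) and hepatocyte markers (15 of 15 in each liver) were well above background in the tissue each marks. In every lung, 7 or more of the 15 hepatocyte markers were also well above background. In every liver, 4 or more of the 8 alveolar type 2 cell markers were so too. The arrays lay on 4 slides per tissue. Exposed and control mice occupied different positions on each slide, so position and exposure cannot be told apart, nor can tissue be told apart from slides and scanner software. Within a tissue, the slide accounted for a median of 36.1% of a member gene's spread between lungs and 34.7% between livers, beside 33.0% and 34.1% over all probes, and for over 70% in 9 members in lung and 4 in liver. The exposure comparisons were therefore also made with slide as a block. Whole tissue was used, in which fewer cells of a type and less RNA per cell cannot be told apart.

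These enzymes attach a polar group to drugs, hormones, bile pigments and the reactive products of oxidation. Glutathione transferases join glutathione to electrophiles, Ugt enzymes add glucuronic acid from UDP-glucuronic acid, and Sult enzymes add sulfate from the donor PAPS. The products are more soluble and are carried out of the cell by transporters of the Abcc family. The liver is the main organ of conjugation, and in the lung the bronchiolar club cells hold much of this activity. Several Gst and Ugt genes are classical targets of the oxidative stress factor Nrf2 and of the xenobiotic receptors Ahr, Car (Nr1i3) and Pxr (Nr1i2).

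Many of these genes are near-copies of each other, and the probe sequences show how far the array separated them. The reported probes of Gsta1 and Gsta2 are printed first because these genes had the lowest exposure differences of all members in lung. The capitals mark the bases that the probes share.
Gsta1: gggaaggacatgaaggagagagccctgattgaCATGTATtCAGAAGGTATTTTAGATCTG
Gsta2: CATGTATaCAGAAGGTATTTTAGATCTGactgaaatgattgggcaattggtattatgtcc
Of 28 overlapping bases 27 are identical, and the single difference is T40A, counted from the 5′ end of the Gsta1 probe. The array design lists transcripts of both genes for each of these probes, so that the values of Gsta1 and Gsta2 are not independent of each other. The Gsta2 probe lies at chr9:78408171-78408230 on the minus strand (mm7, the build in the lung file headers), and no position is given for the Gsta1 probe.

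The pair of Sult2a2 probes is shown because this gene separated single livers, as described further on. They overlap by 17 bases, again in capitals, of which 16 are identical, with G5A the difference (counted from the 5′ end of the first).
Sult2a2, reported probe: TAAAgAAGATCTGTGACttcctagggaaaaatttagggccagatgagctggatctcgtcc
Sult2a2, other probe: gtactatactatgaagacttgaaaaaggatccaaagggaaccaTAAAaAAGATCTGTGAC
The reported probe lies at chr7:12414651-12414710 on the minus strand (mm7).

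The Ugt2b37 and Ugt2b38 probes are shown because both are of Ugt2 genes that were far lower in lung than in liver, and their values in single lungs are described further on.
Ugt2b37: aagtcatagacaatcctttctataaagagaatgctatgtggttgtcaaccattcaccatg
Ugt2b38: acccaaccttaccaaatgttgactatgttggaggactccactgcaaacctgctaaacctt
The first maps to chr5:87177762-87179054, a span longer than the probe, and the second to chr5:87358365-87358424, both on the minus strand (mm7). The design lists Ugt2b36 beside Ugt2b37 for the first, and Ugt2b37 and Ugt2b5 beside Ugt2b38 for the second. Of the 47 reported probes, 6 are listed for transcripts of another gene as well. Beside those of Gsta1, Gsta2, Ugt2b37 and Ugt2b38 these are the probe of Gstp1 (also Gstp2) and that of Ugt1a6b (also Ugt1a1, Ugt1a5 and Ugt1a10). Where a gene had several probes, as 15 genes did, the brightest is reported.

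Conjugation enzyme mRNA was lower in lung than in liver for most members. In control mice 40 of 47 genes were lower in lung, 2 were higher, and 5 did not pass the test (limma, adjusted p threshold 0.05 over all probes). By probe, 52 of 65 were lower in lung, or 80% against 28.4% of all probes, and 2 were higher, or 3.08% against 29.7%. The median lung minus liver difference of the member probes was -2.20 on the log2 scale, beside -0.02 over all probes, and single genes ran from -7.48 to 2.15. In the exposed mice, which the control comparison did not use, 53 of 65 probes were lower in lung (81.5%, against 30.4% of all probes) and 3 were higher (4.62%, against 31.1%), with a median of -2.17. The reported probes of 32 genes were well above background on at least 50% of the arrays of a group in both tissues, and those of 15 genes in liver alone. None was restricted to lung.

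**Figure D1:**
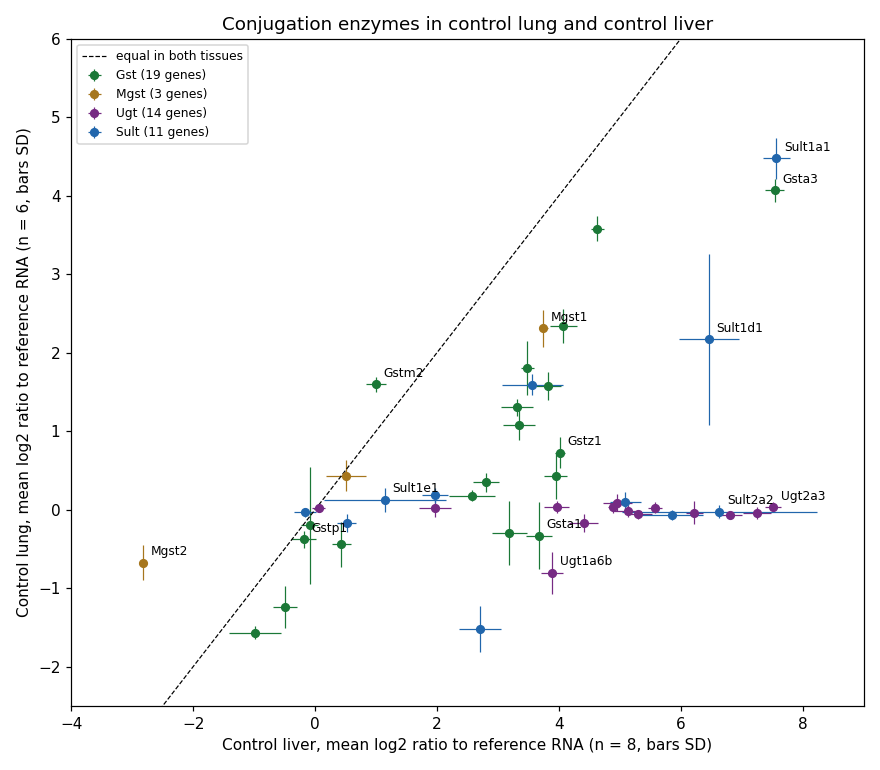
Mean log2 ratio to the reference RNA of each conjugation enzyme gene in control liver (x axis, n = 8) and control lung (y axis, n = 6), with bars for the SD, coloured by family. Most genes lie below the diagonal of equal ratios, Ugt2a3, Ugt2b5 and Ugt2b38 farthest from it, and Mgst2 lies 2.15 above it.

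All 4 alpha class Gst genes, whose enzymes act on lipid peroxidation products and steroid intermediates, were lower in lung. Gsta1 had log2 ratios of -0.65 to 0.46 (median -0.51) in control lungs and of 3.40 to 4.02 (median 3.66) in control livers. The tissues did not overlap, and lung was 16.1-fold lower (log2 difference -4.01 ± 0.15, SE, adjusted p = 2.53e-13). Gsta3, described as the abundant alpha class enzyme of adult mouse liver, was at 4.07 ± 0.15 (SD, n = 6) in control lung and 7.54 ± 0.16 (SD, n = 8) in control liver, a difference of -3.47 ± 0.08 (SE). Its other probe gave -1.39. Gsta4, the enzyme most active on 4-hydroxynonenal, differed least among the 4, by -0.88 ± 0.11 (SE, adjusted p = 1.28e-06).

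In the mu class 6 of 7 genes were lower in lung, Gstm6 the most (-3.52 ± 0.11, SE), at -0.02 to 0.79 in control lungs and 3.68 to 4.20 in control livers. Gstm1, the major mu class enzyme of liver, was lower too (log2 difference -1.74), at 2.34 ± 0.22 (SD, n = 6) in lung and 4.08 ± 0.23 (SD, n = 8) in liver. Gstm2 went the other way: control lungs lay at 1.44 to 1.72 and control livers at 0.79 to 1.26, without overlap, a 1.51-fold higher ratio in lung (adjusted p = 1.58e-06). Under median centering in place of loess this difference turned to -0.09 (adjusted p = 0.735), so that its direction rests on the normalization.

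The 3 theta genes, whose enzymes handle small halogenated compounds, were lower in lung, with log2 differences from -2.27 ± 0.12 (Gstt2) to -2.01 ± 0.11 (Gstt3, both SE). Gstz1, an enzyme of tyrosine breakdown, was lower (log2 difference -3.29 ± 0.07, SE, adjusted p = 2.22e-16), as was Gstk1, of mitochondria and peroxisomes (-1.05 ± 0.07, SE, adjusted p = 5.38e-10). Gstp1, the pi class enzyme widespread outside the liver, did not pass the test (-0.19, adjusted p = 0.0694). Its control lungs ranged from -0.54 to -0.20 and its control livers from -0.38 to 0.26. The other Gstp1 probe was lower in lung (-0.94, adjusted p = 2.72e-09), and the reported one is listed for Gstp2 as well.

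The omega class differed in spread more than in mean. Gsto1, which reduces dehydroascorbate and arsenic compounds, did not pass the test (difference -0.11), but its lungs ranged from -1.07 to 1.28 and its livers only from -0.20 to 0.23. Gsto2 was lower in lung (log2 difference -0.59 ± 0.16, SE, adjusted p = 0.0043), a call that median centering ended (adjusted p = 0.064). In liver Gsto2 followed the slide, which accounted for 96.7% of its spread: the 7 livers on slides 1 and 3 lay at -1.54 to -1.32 and the 8 livers on slides 2 and 4 at -0.72 to -0.38. The lungs, at -1.73 to -1.36, overlapped with the former and not with the latter.

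Of the 3 microsomal enzymes, Mgst1 was lower in lung (log2 difference -1.44 ± 0.08, SE, adjusted p = 8.42e-11), and its other probe gave -3.44. Mgst2, an enzyme that can make leukotriene C4, was higher in lung. Its ratio was -0.94 to -0.33 (median -0.66) in control lungs and -2.93 to -2.72 (median -2.82) in control livers. Each lung lay above each liver, 4.44-fold on average (log2 difference 2.15 ± 0.08, SE, adjusted p = 1.29e-13), and 2.12 ± 0.12 (SE) in exposed mice. Mgst3 did not pass the test (-0.08).

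The 3 largest tissue differences were those of Ugt2 genes. All 8 Ugt2 genes, which conjugate steroids, fatty acids and many drugs, were lower in lung, with log2 differences from -7.48 to -4.58 and a median of -5.91. Ugt2a3 was at -0.08 to 0.10 in control lungs, none of them well above background, and at 7.35 to 7.68 in control livers. The fitted liver over lung ratio was 179-fold for Ugt2a3 (adjusted p = 2.89e-21), 157-fold for Ugt2b5 (adjusted p = 9.98e-20), 118-fold for Ugt2b38 (adjusted p = 2.6e-20) and 35.4-fold for Ugt3a1 (adjusted p = 6.34e-18), all with control lungs not well above background. These sizes depend on the reference channel and are no bounds: from the Cy5 signals alone, with lung set at no less than the lowest signal detected, Ugt2a3 came to 234-fold and Ugt3a1 to 135-fold. The smallest Ugt2 difference was that of Ugt2b34, at -4.58 ± 0.10 (SE).

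The 3 Ugt1 probes behaved differently in lung. Ugt1a1, the enzyme that conjugates bilirubin, and Ugt1a9, which conjugates phenols, were well above background on no lung array, with log2 differences of -3.93 ± 0.08 and -1.95 ± 0.10 (SE) in control mice. The reported Ugt1a6b probe was above background in every lung, at -1.02 to -0.32 in controls, and lower than in liver (log2 difference -4.70 ± 0.11, SE). It lies at chr1:88122519-88122578, downstream of the Ugt1a1 probe at chr1:88115927-88115986 (plus strand, mm7). Ugt1a transcripts share their last exons, and this probe cannot be told to measure Ugt1a6b alone. The other Ugt1a6b probe, at chr1:88010877-88010936, gave -1.01. It was well above background in 1 of 6 control lungs, so that the size of this difference is uncertain. Ugt3a2, from a small family that uses other sugar donors, was lower in lung (-4.87 ± 0.10, SE). Its other probe, well above background in no lung, gave -2.36. Ugt8a, the ceramide galactosyltransferase of myelin, was above background in 4 of 8 control and 3 of 7 exposed livers and in no lung.

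The promoters of members were searched for 2 motifs whose letters were chosen after the values were seen: GTTAATNAT, a core bound by the hepatic factor Hnf1, and TGACNNNGC, the antioxidant response core bound by Nrf2. Each was read on both strands, and neither overlaps the other. The windows run from 250 bases before to 50 after the start (RefSeq, GRCm38.p6), and 52 windows were held for 41 member symbols. The Hnf1 letters were in 3 of 52 windows (5.77%) and in 263 of all 32851 (0.801%). Their positions are shown in capitals.
Ugt1a9, chr1:88070665-88070724, plus strand: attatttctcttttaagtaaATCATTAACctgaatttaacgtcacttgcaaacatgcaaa
Ugt1a1, chr1:88211895-88211954, plus strand: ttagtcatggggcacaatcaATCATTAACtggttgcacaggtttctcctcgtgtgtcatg
Sult1d1, chr5:87569046-87569105, minus strand: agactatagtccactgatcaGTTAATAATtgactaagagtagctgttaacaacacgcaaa
The matches began 94, 44 and 79 bases before the start. The antioxidant core was in 4 of 52 windows (7.69%), those of Gsta3, Gstm5, Gstm7 and Mgst1, and in 12.4% of all windows. A match gives letters only, not binding. The Hnf1 share rests on 3 windows, 2 of them of Ugt1a genes, and was set beside all promoters, not beside those of other liver genes. Sult1d1 was well above background in every lung. The part of either motif in the tissue differences was not tested.

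Among sulfotransferases all 6 Sult1 genes were lower in lung, and 1 of the 2 Sult2 genes. Sult1a1, which sulfates phenols and catechols, was present in both tissues, at 4.48 ± 0.26 (SD, n = 6) in control lung and 7.57 ± 0.22 (SD, n = 8) in control liver (difference -3.09 ± 0.12, SE, adjusted p = 2.31e-13). Sult1b1, which sulfates thyroid hormones, was lower (log2 difference -4.99 ± 0.10, SE) and was detected in 1 of 6 control lungs. Sult1e1, the estrogen sulfotransferase, differed least (-1.03 ± 0.36, SE, adjusted p = 0.0222), and the call was lost with all spots in the background fit (adjusted p = 0.174). Sult2a2, of the hydroxysteroid sulfotransferases, was well above background in no control lung and lower there than in liver (log2 difference -6.66 ± 0.58, SE, adjusted p = 1.81e-08), yet its livers ran from 2.82 to 7.83. Its other probe, well above background in 13 of 15 livers and in no lung, gave -0.92. Sult3a1, also well above background in no control lung, was lower by the same test (-5.93 ± 0.19, SE). Sult4a1, mainly known from brain, was lower in lung (-0.69 ± 0.07, SE). Sult2b1, the cholesterol and pregnenolone sulfotransferase of skin and other epithelia, was the third gene called higher in lung among exposed mice (0.23 ± 0.06, SE, adjusted p = 0.00181), but did not pass the test among controls (0.13, adjusted p = 0.142). Whether these differences differ between exposed and control mice is the difference of exposure effects given further on, which Sult2b1 did not pass.

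Inhalation of nanoTiO2 moved no member past the threshold in either tissue. In lung 0 of 65 probes were called, against 91 of 41172 probes overall (0.221%), with a lowest adjusted p of 0.464 among members. At an unadjusted p under 0.05 there were 4 member probes (6.15%, against 7.08% overall). In liver 0 were called, as was no probe on the array (0%), and 3 passed unadjusted (4.62%, against 2.43%). The median exposure difference of member probes was 0.02 in lung and 0.01 in liver, beside 0.00 over all probes in both, and 30 of 47 genes were above 0 in lung and 23 in liver.

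The precision differed between genes. The 95% interval of the exposure effect lay within 1.5-fold either way for 42 of 47 genes in lung and 44 in liver, and within 2-fold for 46 and 45. The exceptions to the wider limit were Sult1d1 in lung (-1.23 to 1.13 on the log2 scale) and Sult1e1 (-0.72 to 1.59) and Sult2a2 (-1.77 to 1.46) in liver. For these the interval did not exclude a 2-fold change. The intervals are per gene, not adjusted for the number of probes, and do not give the power to call a change. With 1 array per mouse and no slide term in the main fits, p-values here measure the spread between arrays, in which mouse and slide are mixed.

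**Figure D2:**
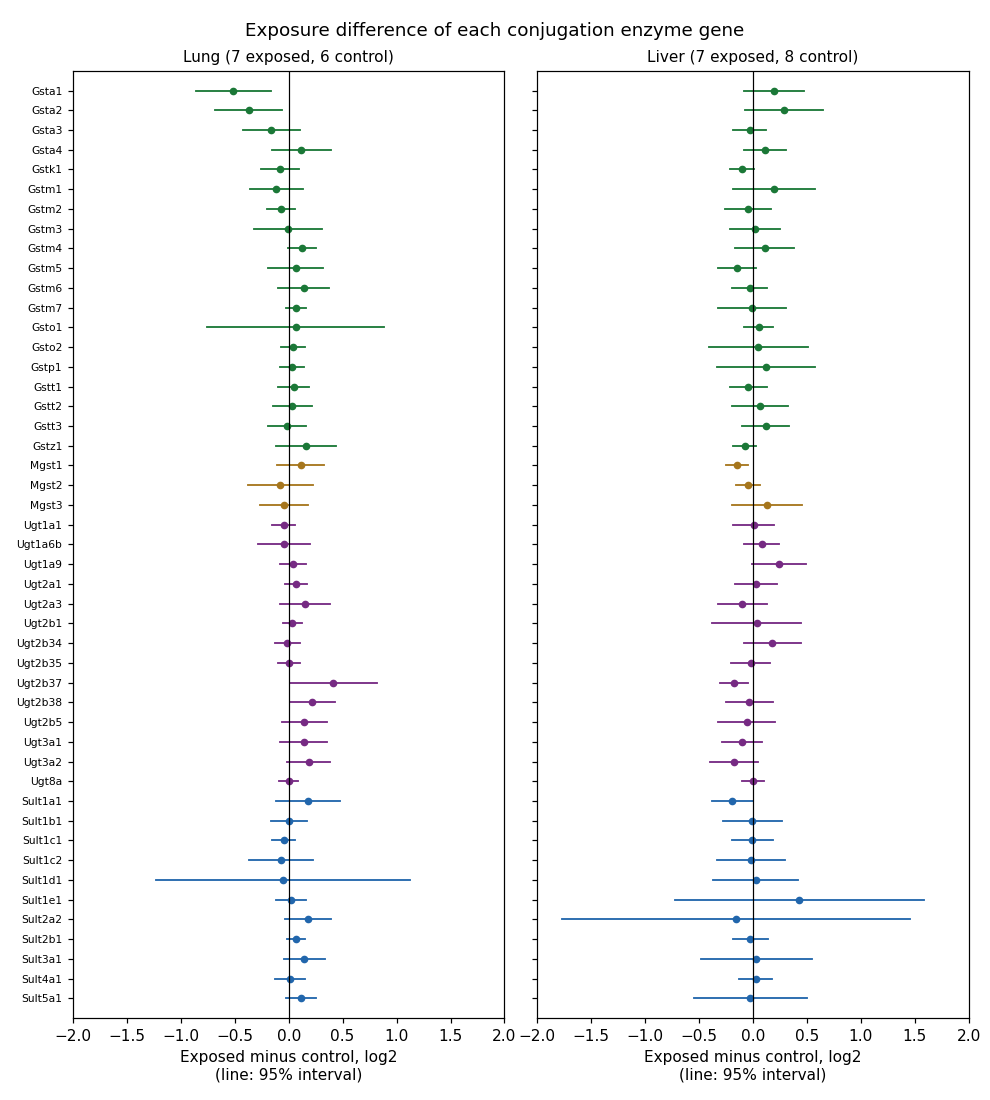
Exposed minus control log2 difference of each conjugation enzyme gene in lung (left) and liver (right), with lines for the 95% interval from limma. Most points lie near 0 with short lines, Gsta1 (-0.51) and Gsta2 (-0.37) are lowest in lung, and the long lines belong to Sult1d1 in lung and to Sult1e1 and Sult2a2 in liver.

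The lowest exposure differences in lung were those of the alpha class. Gsta1 ranged from -1.26 to -0.57 (median -0.84) in exposed lungs and from -0.65 to 0.46 (median -0.51) in control lungs. The groups overlapped, since exposed mice 7 (-0.63) and 23 (-0.57) lay above control mice 27 (-0.64) and 29 (-0.65), and control mouse 32 stood highest. The difference was -0.51 ± 0.17 (SE, unadjusted p = 0.00738, adjusted p = 0.464), and -0.35 without control mouse 32. It was negative on each of the 3 slides that held both groups (-0.27, -0.37 and -0.91), and -0.53 with slide as a block (adjusted p = 0.297). Gsta2, whose probe overlaps that of Gsta1, ranged from -0.88 to -0.40 in exposed and from -0.66 to 0.37 in control lungs, a difference of -0.37 ± 0.15 (SE, unadjusted p = 0.0218, adjusted p = 0.618), or -0.24 without mouse 32. Gsta3 was at -0.16 ± 0.13 (SE) and Gsta4 at 0.12 ± 0.13 (SE), with both groups overlapping.

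Other members named by rank did not separate the groups either. Gstm1 was at -0.11. The highest differences among detected members were Ugt3a2 (0.18 ± 0.09, SE, unadjusted p = 0.0648), Sult1a1 (0.18 ± 0.14), Gstz1 (0.16 ± 0.13) and Gstm6 (0.14 ± 0.11). The Ugt3a2 difference was 0.318, -0.014 and 0.249 on slides 1, 2 and 3. Slides 1 and 3 held mice 1, 13 and 19, whose lungs are described further on, and their part in the Ugt3a2 value was not tested. Sult1a1 ranged from 4.36 to 5.09 in exposed and from 4.21 to 4.93 in control lungs, and its direction turned negative under 2 of the processing alternatives.

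Sult1d1, which sulfates dopamine and other amines, varied more between lungs than any other member. Exposed lungs ranged from 0.35 (mouse 20) to 3.92 (mouse 13) with a median of 2.25, and control lungs from 0.86 (mouse 29) to 3.62 (mouse 24) with a median of 2.47. High and low lungs occurred in both groups, and the difference was -0.05 ± 0.55 (SE). The 3 highest Sult1d1 lungs, of mice 13, 24 and 19, were also highest in Gsto1 (1.28, 0.91 and 0.74). The 3 lowest, of mice 20, 29 and 27, had the lowest means over 9 ciliated cell markers, 2.70, 2.56 and 2.60, beside 2.85 to 3.18 in the other 10 lungs. They were also lowest over 8 club cell markers (4.66, 4.75 and 4.79, others from 4.81) and over 9 heart muscle markers (2.51, 2.04 and 1.32, others from 2.51). Over 15 hepatocyte markers they were again lowest (0.875, 0.745 and 0.567, others from 0.887). Over 8 alveolar type 2 markers they lay at 3.996, 4.179 and 4.095, within the range of the other lungs (3.98 to 4.305). The slide accounted for 56.8% of the Sult1d1 spread between lungs and for 59.4% of that of Gsto1. Mice 13 and 19 were on slide 3, mouse 24 on slide 1, mice 27 and 29 on slide 2 and mouse 20 on slide 4. The part of these cell types and of the slide in the Sult1d1 values was not tested. In liver Sult1d1 stayed between 5.55 and 6.95.

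**Figure D3:**
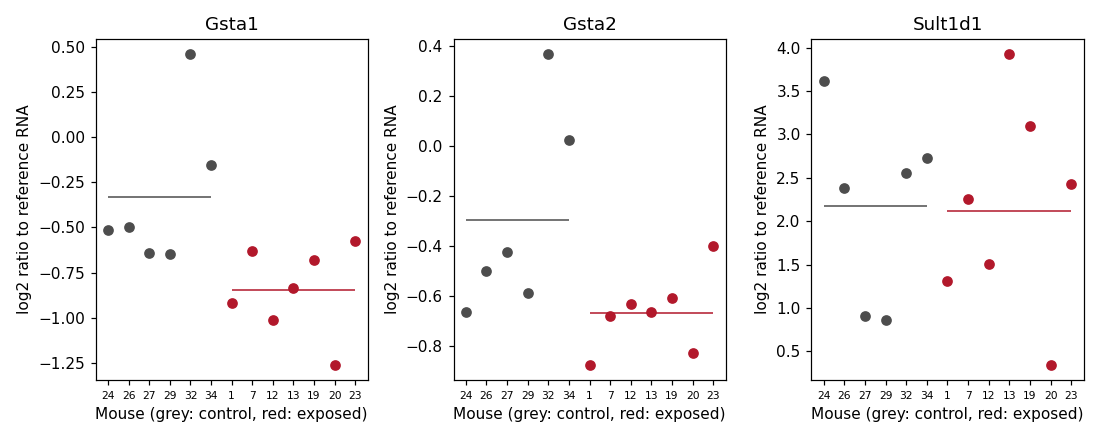
Log2 ratio to the reference RNA of Gsta1, Gsta2 and Sult1d1 in each lung (grey control, red exposed), with lines at the group means. Gsta1 and Gsta2 lie lower in exposed lungs with overlap and a high control mouse 32, and Sult1d1 spreads from 0.35 to 3.92 in both groups alike.

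A set of liver-restricted members differed between exposed lungs. It held 11 genes (Sult2a2, Sult3a1, Ugt1a1, Ugt1a9, Ugt2a1, Ugt2a3, Ugt2b1, Ugt2b35, Ugt2b38, Ugt2b5 and Ugt3a1), chosen as well above background in every liver and in no control lung, so that their contrast with control lungs is set by the choice and is not read here. Of these 11, mouse 1 had 7 above background in its lung, mice 13 and 19 had 4 each, mouse 7 had 1, and the other 3 exposed lungs had 0. Ugt2a3, for example, was at 0.75, 0.29 and 0.27 in mice 1, 13 and 19 and between -0.07 and 0.09 in the other exposed lungs. Ugt2b37, above background in 2 control lungs and thus not of the 11, was at 1.34 (mouse 1), 0.74 (mouse 19) and 0.43 (mouse 13), at 0.00 to 0.08 in the other exposed lungs and at -0.21 to 0.18 in controls. The exposure difference of Ugt2b37 was 0.41 ± 0.19 (SE, unadjusted p = 0.0448, adjusted p = 0.7). That of Ugt2b38, which is among the 11, was 0.22, and its p-value is not read for the reason given above. The other Ugt2b37 probe, detected in 1 lung, gave 0.06 ± 0.06 (SE).

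The same 3 lungs had the highest levels of hepatocyte markers. The mean over the 15 markers was 2.59 in mouse 1, 2.10 in mouse 19 and 2.03 in mouse 13, beside 0.88 to 1.40 in the other exposed lungs and 0.57 to 1.25 in controls, and 15, 14 and 13 markers were above background in them, beside 7 to 11 in the others. Fibrinogen beta (Fgb) was at 4.42, 2.79 and 2.87 and the urea cycle enzyme Cps1 at 1.48, 0.81 and 0.57 in mice 1, 19 and 13, and Cps1 was not above background in any other lung. All 15 markers had exposure differences above 0 in lung, 5 of them at an unadjusted p under 0.05 (beside 7.08% of all probes) and none called. Without these 3 lungs, a choice made after the values were seen that takes out the highest values, Ugt2b37 stood at 0.07 ± 0.07 and Ugt2b38 at 0.06 ± 0.04 (SE). The part of liver RNA in these values was not tested.

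**Figure D4:**
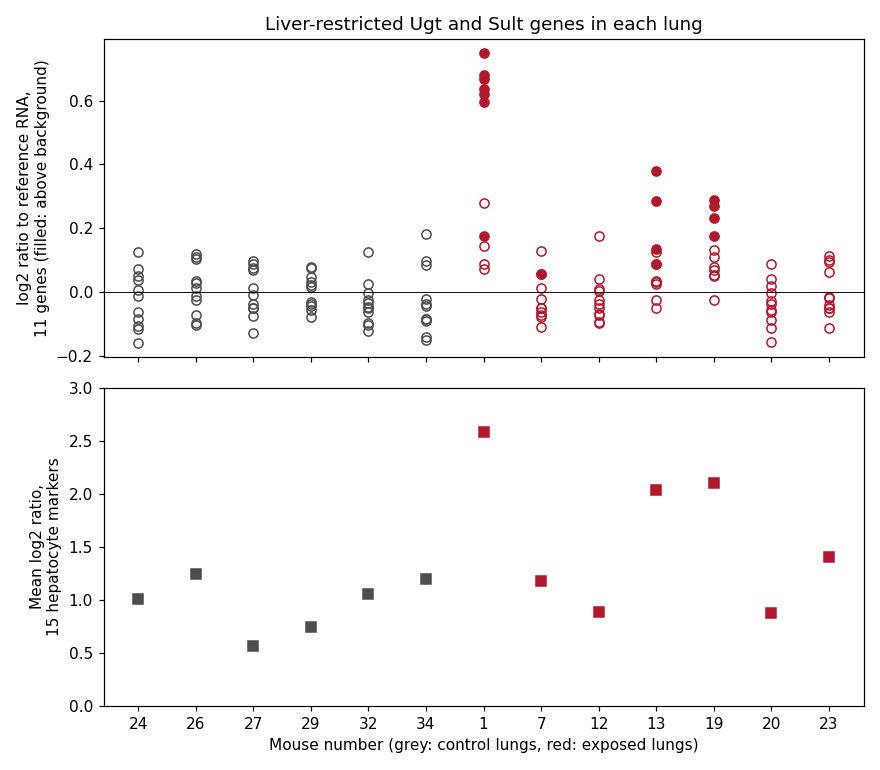
Upper panel: log2 ratios in each lung of the 11 Ugt and Sult genes chosen as detected in every liver and no control lung; lower panel: mean log2 ratio over 15 hepatocyte markers in the same lungs (grey control, red exposed). Mice 1, 13 and 19 are highest among the exposed lungs in both panels.

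In liver the exposure differences were small. Ugt2b37 ranged from 5.88 to 6.21 (median 6.04) in exposed and from 6.02 to 6.36 (median 6.27) in control livers, overlapping, with a difference of -0.18 ± 0.06 (SE, unadjusted p = 0.0104, adjusted p = 1). It was negative on each of the 4 slides (-0.29 to -0.10), but the other Ugt2b37 probe, detected in every liver, gave 0.11 ± 0.17 (SE). Mgst1, which reduces lipid peroxides at membranes, was at 3.43 to 3.68 in exposed and 3.63 to 3.84 in control livers, a difference of -0.14 ± 0.05 (SE, unadjusted p = 0.00884, adjusted p = 1), while its other probe gave 0.04 ± 0.08 (SE). Sult1a1 differed by -0.19 ± 0.09 (SE, unadjusted p = 0.048, adjusted p = 1), and Ugt3a2 by -0.17, with 0.17 from its other probe. The hepatocyte markers lay lower in exposed livers as well: 15 of 15 had differences below 0, with a median of -0.21. Of them 9 had an unadjusted p under 0.05, beside 2.43% of all probes, and none was called. The part of this shift in the member values was not tested. The highest differences were Sult1e1 (0.43 ± 0.55, SE), Gsta2 (0.29 ± 0.17), Ugt1a9 (0.24 ± 0.12, unadjusted p = 0.0542) and Gstm1 (0.20 ± 0.18). The Gsta2 value was positive on 2 slides (0.42 and 0.85) and negative on the other 2 (-0.33 and -0.07). Ugt2b37, Sult1a1 and Ugt3a2 changed sign in liver under at least 1 processing alternative.

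Single livers stood far apart in a few members. Sult2a2 was at 2.58 in exposed mouse 19 and at 2.82 in control mouse 45, beside 6.64 to 7.83 in the other 13 livers, and with the other probe these 2 livers alone were not above background (0.14 and 0.16, beside 0.39 to 2.08). The same 2 livers were the highest in Gstp1, at 1.34 and 0.26 beside -0.63 to 0.05. Liver 19 was also highest in Gstm1 (5.40, the next at 4.45) and Gsta1 (4.45, the next at 4.02). In genes looked at after these values were seen, both were highest in Hsd3b5 (4.47 and 4.10, others at most 3.40) and Slco1a1 (4.53 and 4.75, others at most 3.88), and in Cyp7b1 (6.70 and 6.43, others at most 6.33), which are known for higher levels in male than in female mouse liver, while Sult2a and Sult3a1 are known for the opposite. Of 2 further genes of male pattern, Cyp4a12 was at 3.91 and 3.95, below mice 12 (4.08) and 26 (4.02), and Elovl3 at 2.69 and 2.95, with mouse 19 below mice 26, 1 and 24. Nqo1, of the Nrf2 targets and also looked at afterwards, set the 2 livers apart: it was highest in mouse 19 (0.265) and lowest in mouse 45 (-1.252). All livers are labelled female. Xist, the RNA of the inactive X chromosome, was at 1.29 and 2.06 in these livers and at 1.52 to 2.07 in the others, and of the Y-linked genes Ddx3y was above background in none and Eif2s3y in 1 other liver (control mouse 37). Sult3a1 was at 6.09 in mouse 19 and 4.99 in mouse 45. Without both livers the exposure difference of Sult2a2 moved from -0.16 ± 0.76 to -0.05 ± 0.21 (SE).

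Sult1e1 varied among livers too, with high values in both groups. It was at 4.05, 2.88 and 1.56 in exposed mice 12, 13 and 9 and at 3.16 and 2.14 in control mice 34 and 24, beside 0.09 to 1.07 in the other 10. These 5 livers were the 5 lowest in Slco1a1, at 0.36, 0.11, 1.01, 1.48 and 2.18, a relation noticed after the values were seen.

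**Figure D5:**
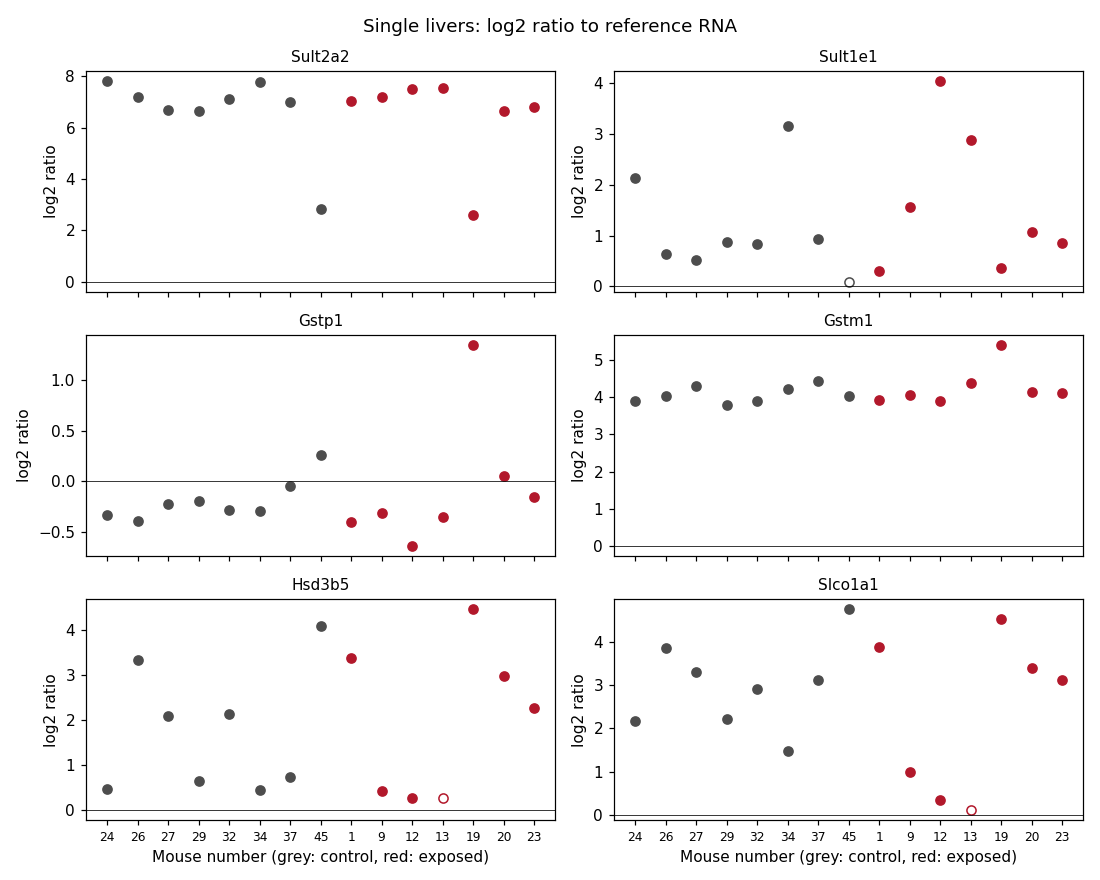
Log2 ratio to the reference RNA of Sult2a2, Sult1e1, Gstp1, Gstm1, Hsd3b5 and Slco1a1 in each liver (grey control, red exposed, open circles not above background). Mice 45 and 19 are lowest in Sult2a2 and highest in Gstp1, Hsd3b5 and Slco1a1, and the 5 livers highest in Sult1e1 are the lowest in Slco1a1.

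The exposure effect was set against that of the other tissue in a fit over the 28 arrays. No member was called, against 60 of 41172 probes (0.146%), and 6 member probes passed an unadjusted p under 0.05 (9.23%, against 4.3%). The lung effect minus the liver effect was -0.71 ± 0.22 for Gsta1 (SE, unadjusted p = 0.00341, adjusted p = 0.621) and -0.66 for Gsta2 (unadjusted p = 0.0105), which lay below 0 in lung and above 0 in liver. For Ugt2b37 it was 0.59 ± 0.20 (SE, unadjusted p = 0.00581, adjusted p = 0.755), with the 3 lungs described above among its values, and -0.05 with the other probe. Sult1a1 (0.37), Ugt3a2 (0.36, other probe -0.06) and Mgst1 (0.25, other probe 0.06) were the others. These effects use the same arrays as the comparisons within each tissue and are no further support for them.

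The supply of cofactors and the regulators around these enzymes were described by lists of genes. No gene of the 7 lists was called in lung or liver exposure. In lung the medians were 0.02 for 24 genes of glutathione synthesis and recycling, 0.02 for 9 of UDP-glucuronic acid supply, 0.06 for 16 of PAPS supply and sulfate removal, 0.04 for 12 conjugate exporters, 0.01 for 13 other conjugation enzymes, 0.04 for 22 further Nrf2 targets and 0.00 for 23 receptors and regulators. The liver medians ran from -0.07 to 0.00. The genes with an unadjusted p under 0.05 in lung were Gusb (0.18), which removes glucuronic acid, the steroid sulfatase Sts (0.20), Pgm2 (0.22), Ggtla1 (-0.20) and Nr1i3 (-0.29). In liver they were Abcc2, the canalicular exporter of conjugates (-0.22), Cyp3a11 (-0.21), Gnmt (-0.18), Cyp1a2 (-0.15), Taldo1 (-0.13), Gusb (-0.12) and Abcc12 (-0.11). In each list 0 to 2 genes passed in either tissue. Of all probes on the array, 7.08% passed the same unadjusted threshold in lung and 2.43% in liver.

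Between control tissues these lists had members called in both directions, apart from the last named here. Of the 24 glutathione genes 7 were higher and 14 lower in lung, and of the 22 Nrf2 targets 8 were higher and 12 lower. UDP-glucuronic acid supply had 3 higher and 6 lower, PAPS supply 7 and 8, the exporters 6 and 5, and the receptors and regulators 5 and 12. The methyl, acetyl and glycine conjugation enzymes had 11 of 13 lower and 0 higher. These counts stand beside the 28.4% lower and 29.7% higher of all probes.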

How the data were processed

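Samples were grouped by the labels of each array, 1 mouse per array. For each array the authors deposited the raw scanner output (Feature Extraction 9.5.3.1 for lung and 10.1.1.1 for liver, per the file headers) with spot and local background intensities that are not normalized. The authors also deposited a table of LOWESS-normalized log2 ratios, whose columns correlated with the values used here at 0.993 to 0.996 and which served as an alternative. The miRNA arrays were not used here.

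From the intensities, spots marked as outliers by the software (111 to 224 per array) were left out, median signals were corrected by normexp (offset 50) fitted per array and channel without the marked spots, and ratios were normalized by loess (span 0.3, control spots at weight 0). Replicate spots were averaged per probe, and tests were run in R 4.3.3 with limma 3.58.1 (lmFit, eBayes) over all probes, with statmod 1.5.0 for random blocks, the packages data.table (1.17.8) and jsonlite (2.0.0). P-values, two-sided, were adjusted by the Benjamini-Hochberg method at a threshold of 0.05. MAANOVA's shrunken F test, named in the methods, was replaced by this moderated test. The number of arrays limits the precision. Lung and liver arrays were fitted separately for exposure, and all 28 together for the difference of the effects.

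The members, gene lists and motifs were chosen with earlier results of these data known. Genes were named by rule: members called for exposure, the 4 highest and the 4 lowest exposure differences per tissue among members detected on at least 50% of the arrays of a group, and per family the called members with the highest and the lowest tissue difference. Others were named after their values were seen. Of 47 array accessions 46 matched RefSeq, with the same symbol. The lung and liver arrays of 12 mice share a mouse number and a group in their labels and were taken as the same animals. Numbers 12, 20 and 23 are exposed in the mRNA labels but control in the miRNA labels, so a number does not name 1 animal across the series. Over 19538 probes the deviations of a mouse's lung and liver from their group means correlated at -0.114 to 0.332, above 0.1 in 6 of 12. The liver of the same number was the best match within its group in 8 of 12. In simulated data over 41174 probes, 96% of added log2 changes of 0.5 were recovered in lung and 96% in liver. The changes were added to probes drawn from the whole array, with noise drawn independently for each array and no slide effect. The median SE over all probes was 0.054 in lung and 0.062 in liver, beside 0.092 and 0.104 for the reported probes of members. These shares therefore do not give the power for members.

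Alternatives were all spots in the background fit, no background correction, the software's processed signals, median centering, the authors' table, a filter on dim probes, the mean over the probes of a gene, slide as a fixed or random block, the mouse as a block and each array left out in turn.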

Additional observations from a re-analysis of the deposited data

Results flagged for a closer look

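Among 92 groups of values over the 27 named genes, 8 held a highest or lowest mouse far from the rest of its group by Dixon's criterion, which chance meets in about 1 of 20 groups. In liver these were Sult2a2 in exposed mouse 19 (2.584, the nearest other exposed liver at 6.66) and in control mouse 45 (2.818, the nearest at 6.64). Gstm1 was high in exposed mouse 19 (5.403, the nearest at 4.38), Gstt3 low in control mouse 45 (2.707, the nearest at 3.24), Sult3a1 low in exposed mouse 13 (4.688, the nearest at 5.77) and Gsta4 high in control mouse 37 (0.768, the nearest at 0.46). In lung they were Gstk1 in control mouse 26 (3.881, the nearest at 3.61) and Gsto2 in control mouse 29 (-1.729, the nearest at -1.57). Mice 19 and 45 together account for 4 of the 8.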

How the results depend on the processing

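No member was called for exposure in lung (23 settings), in liver (25) or for the difference of the effects (38) under any alternative run; at an unadjusted p under 0.05 limma gave 0 to 7, 1 to 11 and 3 to 10 member probes. Members called between control tissues numbered 43 to 58 (53 to 54 with 1 array left out), and between exposed tissues 45 to 58 (56 to 57). With the mouse as a replicate block the counts were 54, 55 and 0, and no named gene changed its call. Changes of sign, apart from that of Gstm2, occurred in values that were not called. With all spots in the background fit, the lung differences of Sult1a1 and Gstm6 were -0.483 and -0.031, and the liver differences of Sult1a1, Ugt2b37, Ugt3a2 and Sult2a2 were 0.489, 0.276, 0.186 and 0.622. In that fit the background model differed on some arrays (Cy5 background mean down to -609 in lung and -972 in liver, beside -5.16 and -8.45 without them). The software's processed signals gave Sult1a1 -0.093 in lung. Median centering gave 0.018 for Gstm1 in lung and 0.018 and 0.009 for Ugt2b37 and Ugt3a2 in liver, and turned the called tissue difference of Gstm2 to -0.093 (adjusted p = 0.735). The liver difference of Sult2a2 ran from -0.702 to 0.492 with 1 array left out, set by control mouse 45 and exposed mouse 19. Of the called tissue differences, Sult1e1 was no longer past the threshold with all spots (-0.68, adjusted p = 0.174), nor Gsto2 with median centering (-0.55, adjusted p = 0.064). Leaving out the lungs of mice 1, 13 and 19, or the livers of mice 19 and 45, was chosen after the data were seen and called no member for exposure. The cause of these changes was not tested otherwise. For genes with probes not above background in lung, the size of the tissue difference is uncertain.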
